A study of Mus musculus with 144 samples.

Results

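The comparison described here set 12 libraries labelled DRE-null (strain label Pkm-delta-DRE) against 12 libraries labelled wild-type (strain label C57BL/6NCrl), all from primary mouse hepatocytes kept in DMSO vehicle for 2, 8 or 12 h. Each label had 4 libraries at each hour. The 24 libraries were chosen by treatment, hour and genotype label alone, and form 6 of 36 groups of 4 libraries that cover both labels, vehicle and 10 nM TCDD (2,3,7,8-tetrachlorodibenzo-p-dioxin), and 9 hours of exposure. Every donor mouse was labelled male and 28 days old. All 24 cultures shared the collagen-coated wells, Williams E medium with dexamethasone and the DMSO, and none received TCDD. The DRE-null mice came from 1 line in which CRISPR-Cas9 editing removed a single dioxin response element (DRE) from an intron of Pkm in every cell of the body. The comparison asks how hepatocytes carrying the 2 labels differed before any TCDD was given. No label names an animal or a liver isolation, so libraries of different hours may come from the same liver, and the p-values below measure only the spread between libraries.

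Pyruvate kinase catalyses the last step of glycolysis, from phosphoenolpyruvate to pyruvate. Adult hepatocytes use mainly the product of Pklr, whereas Pkm gives the PKM1 and PKM2 forms found in most other cells. The aryl hydrocarbon receptor (AHR), once bound by TCDD, enters the nucleus and binds DREs near its target genes. Hepatocytes that have just been isolated and plated lose liver-specific transcripts over the first hours and days, so the hours of culture are themselves a strong source of change.

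The libraries held between 15491968 and 25068992 read pairs assigned to a gene. Levels are given as CPM, the count of a gene scaled to its library's total of such pairs and across all libraries, and differences as log2 of the DRE-null label over the wild-type label with their standard errors (SE). The first principal component held 38.9% of the variance and the next 15.4%, and 22 of the 24 libraries correlated best with the mean of their own hour. The exceptions were library 16 (wild-type label, 12 h), nearest to 8 h, and library 82 (DRE-null label, 8 h), nearest to 12 h. Summed CPM of 12 hepatocyte markers was 65324 to 196199 under the wild-type label and 61285 to 256122 under the DRE-null label. Xist stayed at or below 0.588 CPM in all 24 libraries, as the male label has it. Nnt, which C57BL/6J mice carry with a deletion and C57BL/6N mice carry whole, was at most 1.82 CPM under either label. The level that an intact Nnt gives in such cultures was not known here, so this value does not check the strain label. Composition was compared in 21 exact permutation tests of 4 against 4 libraries, and none passed after adjustment (smallest adjusted p = 0.20, smallest exact p possible 0.0286). With that floor a few separated measures could not pass, so the tests do not show that composition was alike. In 3 tests the labels were fully apart. The first stranded column held 50.95 to 51.22% against 50.46 to 50.79% at 2 h (wild-type against DRE-null label), and 50.85 to 51.03% against 50.60 to 50.83% at 8 h. The mitochondrial share at 8 h was 2.67 to 3.24% against 3.29 to 5.06%. The share of unmapped pairs was 10.9 to 14.5% in the 6 wild-type-labelled libraries with the 2 lowest library numbers of each hour, 5.83 to 9.31% in the other 6, and 6.71 to 10.8% under the DRE-null label.

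Pkm, the edited gene, was not called between the labels. Its levels under the wild-type label had a lowest, median and highest value of 26.9, 63.03 and 132.9 CPM, and under the DRE-null label of 37.0, 52.3 and 281 CPM. The ranges overlapped at every hour. The log2 difference was 0.17 (SE 0.22, edgeR adjusted p = 0.786), and without the library at 281 CPM, library 73 at 2 h, it was -0.08. Vehicle levels of Pkm therefore did not separate the labels. With TCDD, Pkm under the DRE-null label was 109.2 to 169 CPM at 8 h and 93.7 to 201 CPM at 12 h, above its own vehicle libraries at 37.8 to 81.5 and 37.0 to 52.4 CPM without overlap. Under the wild-type label it was 29.3 to 62.6 CPM with TCDD at 8 h and 29.2 to 89.7 CPM at 12 h, overlapping its vehicle libraries at 41.8 to 80.8 and 26.9 to 54.2 CPM. The higher Pkm with TCDD was thus seen in the libraries whose label names the deletion, which goes against that label. Whether the labels were exchanged was not tested, and every direction below is that of the labels as deposited.

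Pklr, the liver pyruvate kinase gene, was lower under the DRE-null label at 12 h and was not called at 2 or 8 h. At 12 h the wild-type-labelled libraries held 86.8, 128.4, 97.2 and 78.4 CPM and the DRE-null-labelled ones 43.5, 42.8, 43.7 and 46.5 CPM. The 4 DRE-null values lay below all 4 wild-type values. The log2 difference at 12 h was -1.13 (SE 0.21, edgeR adjusted p = 0.00264), against 0.34 at 8 h, and it differed between the hours (adjusted p of the label-by-hour term 0.0405). Over the 3 hours together Pklr was not called (log2 -0.35, adjusted p = 0.397). Of the 35 annotated genes that start within 1000 kb of Pkm, 11 were expressed enough to test and 0 were called by edgeR, with 3 at an unadjusted p under 0.05 and log2 differences from -1.33 to 0.94.

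Across the 3 hours, with hour as a covariate, 86 of 13267 genes differed between the labels (0.648%), where a called gene has an edgeR adjusted p under 0.05 and a change of at least 1.5-fold. Of these, 24 were higher under the DRE-null label (0.181%) and 62 lower (0.467%), and 1626 genes had an unadjusted p under 0.05. Counts of called genes in families and lists over the 3 hours, given further on, stand beside these shares. Without the fold limit the calls numbered 100 (0.754%). All 86 had the same sign under the other scaling that was tried (RLE), and 83 of them were called under it. Of the 86 calls, 36 held in all 24 fits that left out 1 library, and 23 were lost in at least 12 of these fits. With the order of library numbers within a label as a random block, 31 of the 86 stayed called, and with counts summed by that order over the hours 18 did. Of the 36, 10 were not called with the block (adjusted p from 0.0542 to 0.280), among them Moxd1, Mup9, Ces2b, Slc1a2, Dhx58, Acmsd, Amdhd1, Hal and Leap2. The genes that were lower included major urinary proteins, 4 acute phase genes, Ces2b, Ces2c, Cyp3a11 and Apoa4. The genes that were higher included Agxt, Hal, Nr1d1, Elovl5, Nqo1 and Zxdc. Apoa4 was the single gene of 13267 whose 12 and 12 libraries did not overlap (0.00754%). At each of the 3 hours, 5 genes separated all 4 from all 4 libraries in the same direction (0.0377%), which were Apoa4, Arpp19, Tomm7 and Rpl14-ps1 (lower) and Zxdc (higher), a set named after its values were seen.

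The number of calls depended on the hour. In a model of the 6 groups, 3 of 13964 genes were called at 2 h (0.0215%), 1 at 8 h (0.00716%) and 700 at 12 h (5.01%). At an unadjusted p under 0.05 the numbers were 1109, 1535 and 3160. Of the 13267 genes tested over the 3 hours, those whose 4 and 4 libraries did not overlap numbered 554 (4.18%), 578 (4.36%) and 1961 (14.8%). In a random order 4 and 4 libraries separate with a probability of 0.0286, and the shares at 2 and 8 h were not far above that. The 12 h calls were 207 higher (1.48%) and 493 lower (3.53%). The 3 calls at 2 h were Cyp3a11 and Mtss1 (log2 -0.99) among the lower genes and the predicted gene Gm19439 (log2 3.31) among the higher ones. The call at 8 h was Apoa4. Single libraries moved these numbers. Without library 84 (DRE-null label, 8 h) there were 510 calls at 8 h and 876 at 12 h, and the 12 h calls fell to 231 without library 88 and to 262, 283 and 315 without library 14, 87 or 16, beside 1 to 4 at 8 h. By DESeq2 the 8 h calls were 40 higher and 17 lower.

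**Figure D1:**
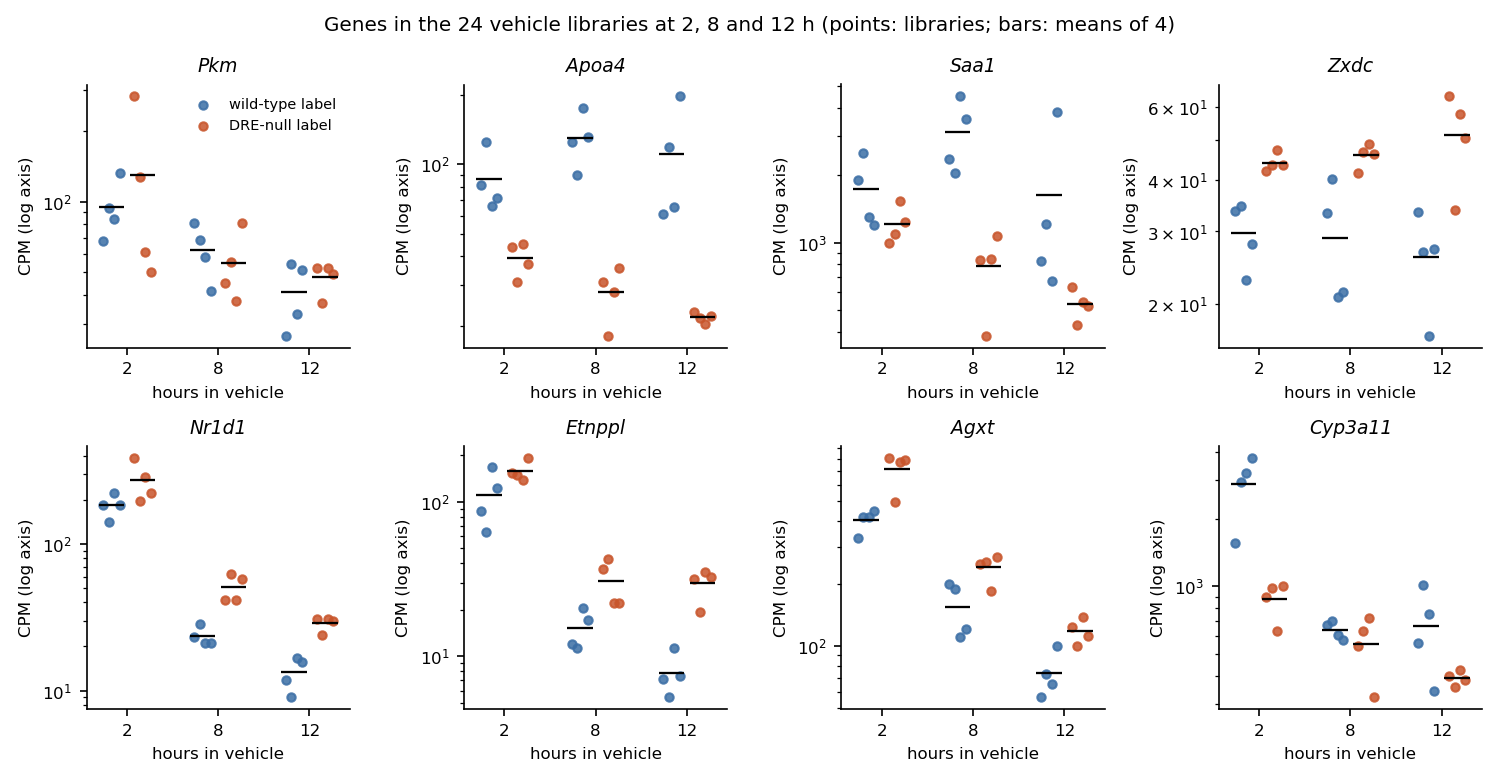
Levels of Pkm, Apoa4, Saa1, Zxdc, Nr1d1, Etnppl, Agxt and Cyp3a11 in CPM on a log axis, 1 point per vehicle library at 2, 8 and 12 h, coloured by genotype label, with bars at the means of 4 libraries. The Apoa4 points of the 2 labels do not meet at any hour, whereas those of Pkm overlap at every hour.

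Apoa4 encodes apolipoprotein A-IV, a component of triglyceride-rich lipoproteins and HDL. At 2 h the wild-type-labelled libraries held 81.5, 125.3, 66.3 and 71.8 CPM and the DRE-null-labelled ones 43.9, 31.1, 45.5 and 37.1 CPM. At 8 h they held 124.5, 89.7, 175 and 131.5 CPM against 30.9, 18.2, 28.1 and 35.6 CPM. At 12 h they held 60.8, 119.2, 65.4 and 197 CPM against 23.1, 21.7, 20.4 and 22.1 CPM. The highest DRE-null library was thus below the lowest wild-type library over all 24. The log2 difference was -1.89 (SE 0.21, edgeR adjusted p = 1.19e-05), and it was -1.12, -2.20 and -2.33 at 2, 8 and 12 h. The call held in all 24 fits that left out 1 library and in every other setting tried except the libraries of 2 h alone. At the 6 other vehicle hours it was 1 of the genes whose call depended on which libraries were kept, as given further on.

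Major urinary proteins (Mups) are small lipocalins that the male mouse liver secretes in bulk, and that carry pheromones into urine. Their genes lie side by side on chromosome 4 and are close copies of each other, so reads can be assigned to the wrong copy and the level of a single Mup is uncertain. Of 18 Mup genes tested that are not pseudogenes, 10 were lower under the DRE-null label and 0 were higher by edgeR. Over all genes tested the shares called were 0.467% lower and 0.181% higher. The group was chosen after the values of its members were seen. The called members were Mup15 (log2 -2.51, SE 0.38, adjusted p = 0.00148), Mup9, Mup18, Mup17, Mup16, Mup11, Mup14, Mup7, Mup12 and Mup20 (log2 -0.71, SE 0.17, adjusted p = 0.0493). When each library was omitted in turn, Mup20 was called in 5 of 24 fits. The Mup11 call was lost without library 2, 14 or 88, and the Mup18 call without library 2, 9, 87 or 88. The other 7 held in all 24, although Mup9 was not called with library order as a random block (limma adjusted p = 0.248). Mup3 and Mup21 had differences of 0.22 and 0.36 and were not called (adjusted p = 0.438 and 0.295).

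The 120 bases before the annotated start of 4 Mup genes are shown to let a reader see how alike Mup11, Mup15 and Mup17, which were called, are to each other and to Mup3, which was not. The other members were not compared. The sequences are RefSeq's on GRCm38.p6, read 5′ to 3′ on the gene's strand. Capitals mark, in the first 3, the longest run that Mup11, Mup15 and Mup17 share (47 bases) and, in Mup3, its longest run in common with Mup15 (19 bases). They lie on the minus strand at chr4:60662396-60662515, chr4:61439705-61439824, chr4:61595833-61595952 and chr4:62087318-62087437.
Mup11: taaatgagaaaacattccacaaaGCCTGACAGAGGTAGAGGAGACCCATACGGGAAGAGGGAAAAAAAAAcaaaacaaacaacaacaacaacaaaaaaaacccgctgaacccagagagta
Mup15: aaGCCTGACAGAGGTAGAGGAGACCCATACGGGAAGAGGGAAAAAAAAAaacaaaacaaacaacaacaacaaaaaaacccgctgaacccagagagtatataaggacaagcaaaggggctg
Mup17: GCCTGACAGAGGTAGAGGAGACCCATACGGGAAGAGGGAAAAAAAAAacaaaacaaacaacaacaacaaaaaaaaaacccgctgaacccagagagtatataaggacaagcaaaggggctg
Mup3: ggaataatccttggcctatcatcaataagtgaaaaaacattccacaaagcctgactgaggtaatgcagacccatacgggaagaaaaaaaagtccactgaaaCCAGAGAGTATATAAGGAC
Over the whole 300-base window around the start, Mup15 and Mup17 had the same base at 100% of 297 aligned positions and differed in the length of runs of A, which are gaps outside this count. Mup11 and Mup15 had the same base at 99.6% of 275, and Mup15 and Mup3 at 88.1% of 253.

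Mup15 had a lowest, median and highest level of 37.0, 213 and 819 CPM under the wild-type label and of 15.7, 45.7 and 165 CPM under the DRE-null label. The ranges overlapped over the 3 hours together and separated at 8 and 12 h. At 12 h the wild-type-labelled libraries held 184, 335, 37.0 and 178 CPM, and the DRE-null-labelled ones 25.4, 15.7, 19.2 and 19.4 CPM. Mup17 was 29.2, 171 and 651 CPM against 21.6, 60.7 and 211 CPM (log2 -1.94, SE 0.34, adjusted p = 0.00753). Mup7, the most abundant of the family among the called members after Mup20, had means of 2251 and 1245 CPM (log2 -0.98, SE 0.19, adjusted p = 0.0135). Mup3 was 13865 to 15440.3 CPM against 14324 to 18019 CPM at 2 h, and the labels overlapped.

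Within the wild-type label the Mup15 values were not alike. The 6 early libraries with the 2 lowest library numbers of their hour held 184 to 819 CPM and the other 6 held 37.0 to 233 CPM, and at 9 of 9 vehicle hours the first pair lay above the second. Moxd1, a monooxygenase of the dopamine beta-hydroxylase family, split the same way at 9 of 9 vehicle hours. It was 10.01 to 142.5 CPM in the first 6 early libraries, 0.0456 to 5.95 CPM in the other 6 and 0 to 2.92 CPM under the DRE-null label. Its log2 difference of -5.35 (SE 0.90, edgeR adjusted p = 0.00416), among the largest of all called genes, thus included the high values of 6 of the 12 wild-type-labelled libraries. The other wild-type-labelled libraries held 5.46 and 4.96 CPM at 8 h, above the DRE-null ones at 0.063 to 2.92 CPM. At 2 h they held 0.267 and 0.555 CPM against 0 to 1.20 CPM, and at 12 h 0.0456 and 5.95 CPM against 0.105 to 0.565 CPM. Ces2b, a carboxylesterase that hydrolyses drug esters and acylglycerols, was 1.99 to 24.3 CPM in the first 6, 0.318 to 1.52 CPM in the other 6 and 0.063 to 2.43 CPM under the DRE-null label (log2 -2.47, SE 0.52, adjusted p = 0.0216), and Ces2c, its close copy, fell by 0.95 on the log2 scale (adjusted p = 0.0293). The same first 6 libraries had the higher share of unmapped pairs. With the unmapped share as a covariate Moxd1, Ces2b, Ces2c and Mup17 were no longer called, whereas Mup14, Mup15 and Mup16 kept their calls. In all, 13 of the 86 genes kept theirs in that fit, and the other 10 were Apoa4, C4a, Nr1d1, Arpp19, Mrps36, Etnppl, Agxt, Zxdc, Nqo1 and Arhgap36. The part of that share in the result was not tested further, and it cannot be told apart from an isolation or animal that the labels do not name.

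**Figure D2:**
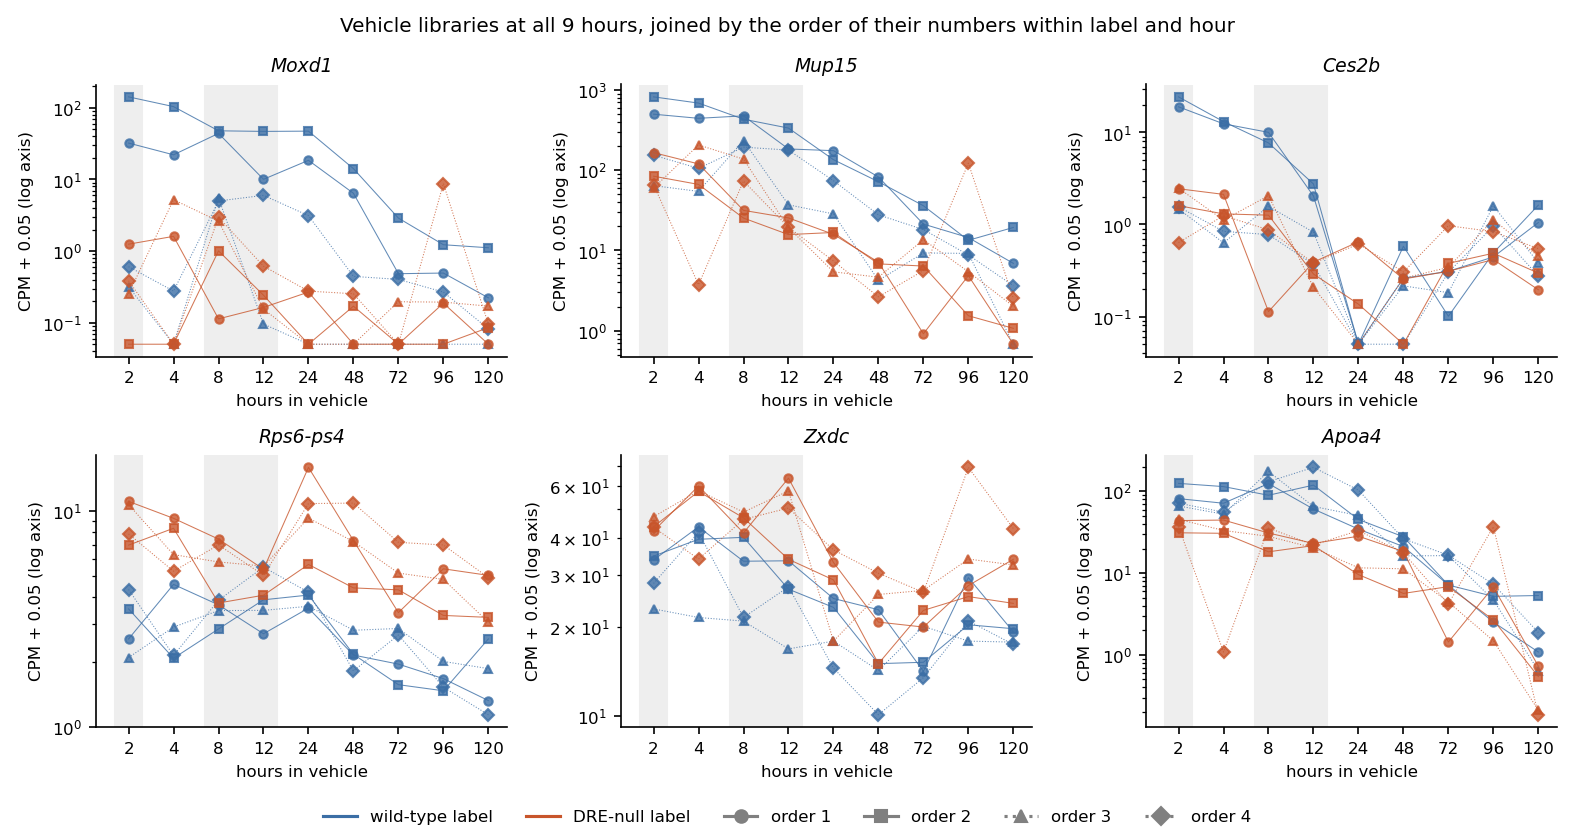
Levels of Moxd1, Mup15, Ces2b, Rps6-ps4, Zxdc and Apoa4 at the 9 vehicle hours, as CPM plus 0.05 on a log axis, with 1 line per library order within each label and grey bands at 2, 8 and 12 h. In the Moxd1 and Mup15 panels 2 of the 4 wild-type lines run above the other two at 9 of 9 hours, and in the Rps6-ps4 panel the DRE-null lines lie above all wild-type lines at 7 of 9 hours.

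Acute phase proteins are made by hepatocytes in answer to cytokines such as interleukin-6. Over all genes tested, 0.467% were called lower and 0.181% higher, and the median log2 difference was 0.04. Of 19 acute phase genes tested, 4 were lower under the DRE-null label and 0 higher by edgeR, with a list median of -0.26. These were the serum amyloid genes Saa1, Saa2 and Saa3, whose products ride on HDL, and Orm2, an orosomucoid. Saa1 had a lowest, median and highest level of 672, 1973 and 4487 CPM under the wild-type label and of 385, 845 and 1536 CPM under the DRE-null label. The ranges overlapped over the 3 hours together and at 2 h, and were apart at 8 h, at 2045 to 4487 against 385 to 1069 CPM, and at 12 h, at 672 to 3816 against 430.5 to 632 CPM. The log2 difference was -1.37 (SE 0.26, edgeR adjusted p = 0.0120) and the call held in all 24 fits that left out 1 library. Saa2 moved with it (log2 -1.36, adjusted p = 0.0120), and the 2 cannot be told apart fully, since they are near-identical copies. Saa3 (log2 -1.41, adjusted p = 0.0468) and Orm2 (log2 -1.32, adjusted p = 0.0493) kept their calls in 6 and 7 of the 24 fits.

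The start regions of Saa1 and Saa2 are shown because the copies are near-identical there too. They are RefSeq's on GRCm38.p6, at chr7:46742981-46743100 on the minus strand and chr7:46751713-46751832 on the plus strand, with the longest run they share (56 bases) in capitals.
Saa1: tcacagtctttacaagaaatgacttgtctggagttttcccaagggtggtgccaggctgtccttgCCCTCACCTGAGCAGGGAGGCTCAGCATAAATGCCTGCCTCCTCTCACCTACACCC
Saa2: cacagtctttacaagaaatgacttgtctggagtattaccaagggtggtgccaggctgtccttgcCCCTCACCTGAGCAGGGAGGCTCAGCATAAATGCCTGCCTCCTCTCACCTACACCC
The 300-base windows of the 2 genes had the same base at 96.0% of 299 aligned positions.

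The lower genes C4a, Leap2, Mt2, Ifi27, Dhx58 and Usp18 were picked from the calls and are no group of their own. C4a, a complement component, had 14.99, 24.7 and 36.2 CPM (lowest, median, highest) under the wild-type label and 10.3, 14.5 and 21.1 CPM under the DRE-null label. It fell by 0.71 on the log2 scale (SE 0.14, edgeR adjusted p = 0.0120) and the call held in all 24 fits that left out 1 library. The levels overlapped at 2 h and were apart at 8 and 12 h. Leap2, which encodes a circulating peptide that blocks the ghrelin receptor, fell by 1.05 on the log2 scale (SE 0.20, adjusted p = 0.0124). Mt2, a metal-binding metallothionein, fell by 0.92 (SE 0.18, adjusted p = 0.0128). Interferon-linked genes among the calls included Ifi27 (log2 -0.79, adjusted p = 0.00791), Dhx58 (log2 -0.80, adjusted p = 0.0211) and Usp18 (log2 -0.84, adjusted p = 0.0406). Usp18 was the single called member of 30 tested in the list of interferon-stimulated genes. Its call held in 9 of 24 fits with 1 library omitted.

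Nr1d1 encodes REV-ERBα, a heme-binding repressor of the circadian clock and of lipid genes. At 2 h it was 186, 141.7, 225 and 186 CPM under the wild-type label and 388, 197, 290 and 225 CPM under the DRE-null label. At 8 h it was 23.3, 28.3, 20.99 and 21.1 CPM against 41.4, 62.1, 41.3 and 58.03 CPM, and at 12 h 11.8, 9.02, 16.8 and 15.7 CPM against 30.996, 24.1, 30.8 and 29.7 CPM. The labels were apart at 8 and 12 h and overlapped at 2 h, and under both labels every 12 h library lay below every 2 h library. The log2 difference was 0.94 (SE 0.13, edgeR adjusted p = 0.000941), and the call held in all 24 fits that left out 1 library. Of 19 clock genes tested, Nr1d1 was the single one called over the 3 hours. Arntl, the activator that drives Nr1d1 transcription, had a difference of -0.03 (adjusted p = 0.976), and Per1 of 0.03 (adjusted p = 0.940).

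Agxt, Etnppl, Hal and Amdhd1, picked from the calls and not from a list, were higher. Agxt, which detoxifies glyoxylate in peroxisomes, was 334 to 450 CPM under the wild-type label and 497 to 810 CPM under the DRE-null label at 2 h, apart in all 4 libraries, and 110.7 to 199 against 185 to 270 CPM at 8 h, where the labels overlapped. Its log2 difference was 0.72 (SE 0.12, edgeR adjusted p = 0.00489). Etnppl, which breaks down phosphoethanolamine, was 7.11, 5.45, 11.4 and 7.49 CPM at 12 h against 31.7, 19.3, 34.9 and 32.6 CPM. It was apart at 8 and 12 h and its log2 difference over the hours was 1.14 (SE 0.19, adjusted p = 0.00416). Hal, the first enzyme of histidine breakdown, rose by 0.67 (SE 0.13, adjusted p = 0.0143) and Amdhd1, a later enzyme of the same route, by 0.74 (SE 0.15, adjusted p = 0.0211). Both calls held in all 24 fits that left out 1 library, but not with library order as a random block (limma adjusted p = 0.0595 and 0.0715). Acmsd, which diverts tryptophan breakdown away from NAD synthesis, moved the other way (log2 -0.69, adjusted p = 0.0145), as did Slc1a2, a glutamate transporter of hepatocytes around the central vein (log2 -1.49, SE 0.30, adjusted p = 0.0154). Hal belongs to a list of 10 periportal genes and Slc1a2 to a list of pericentral genes of which 9 were tested, and each was the single called member of its list.

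Lipid genes were called in both directions. Elovl5, which lengthens polyunsaturated fatty acids, was 60.9, 84.8 and 571 CPM (lowest, median, highest) under the wild-type label and 106, 152 and 830 CPM under the DRE-null label. The ranges overlapped over the hours together, and the labels were not apart at every single hour. The log2 difference with hour as a covariate was 0.82 (SE 0.15, edgeR adjusted p = 0.00898). Vnn1, a pantetheinase and target of PPARα, had a difference of 0.92 (adjusted p = 0.0299), and Fitm2, which acts in lipid droplet formation, of 0.59 (adjusted p = 0.0264). Cidec, a lipid droplet protein, was lower (log2 -0.67, adjusted p = 0.0250), as was Acnat2, a peroxisomal acyltransferase (log2 -1.62, adjusted p = 0.0216). Of 20 genes for fatty acid oxidation and PPARα targets tested, 1 was called, and of 17 lipogenesis genes 1, which were Vnn1 and Elovl5. Elovl5 was called whichever single library was omitted, Vnn1, Fitm2 and Cidec in 11, 14 and 18 of these 24 fits, and Acnat2 in all but the fit without library 87.

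Cyp3a11, a major drug-metabolising cytochrome P450, was 1557, 2917, 3219 and 3750 CPM at 2 h under the wild-type label and 897, 981, 631 and 1005 CPM under the DRE-null label. The labels were apart at 2 h and overlapped at 8 and 12 h. The log2 difference was -1.70 at 2 h (edgeR adjusted p = 0.0263), -0.21 at 8 h and -0.77 at 12 h, and -0.89 over the 3 hours (SE 0.20, adjusted p = 0.0264). It was the single called member of 23 drug-metabolism P450s tested, and the call over the hours was lost without library 14, 74, 76, 87 or 88. Of 11 tested genes for AHR and its targets, 1 was called over the 3 hours. This was Nqo1, a quinone reductase driven by both AHR and NRF2, at 8.63, 21.6 and 30.4 CPM against 14.2, 31.3 and 44.8 CPM (log2 0.59, SE 0.13, adjusted p = 0.0257), called in 15 of 24 fits with 1 library omitted. Cyp1a1, the most TCDD-responsive of them, was 0.823 to 17.3 CPM under the wild-type label and 0.837 to 6.63 CPM under the DRE-null label, with a difference of -0.43 (adjusted p = 0.723).

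The 5-letter core of the DRE, GCGTG, was searched on both strands of the 120 bases before the start of each gene, counting a promoter once however many matches it held. It occurred in 4 of 20 promoters of higher genes and 7 of 46 of lower genes, as far as the 86 called genes had a RefSeq promoter (66 of 86). Over all 27025 promoters its share was 17.97%.

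Mest, an imprinted gene expressed from the paternal copy, was 0.698, 2.79 and 9.96 CPM (lowest, median, highest) under the wild-type label and 3.63, 6.97 and 13.1 CPM under the DRE-null label. The labels were apart at 8 and 12 h and the log2 difference was 1.26 (SE 0.24, edgeR adjusted p = 0.0120). Prlr, the prolactin receptor, had a difference of 0.93 (adjusted p = 0.0268), Tox2, an HMG-box protein, of 1.37 (adjusted p = 0.0310), and Ube2c, a ubiquitin-conjugating enzyme of mitotic exit, of 1.58 (adjusted p = 0.0268). Plk1, a mitotic kinase, was 0 to 0.422 CPM against 0 to 1.55 CPM and was the single called member of 20 cell cycle genes tested. The calls of Prlr, Tox2, Ube2c and Plk1 held in 16, 15, 16 and 6 of the 24 fits that left out 1 library. Hectd2os, which lies antisense to Hectd2, was 0 to 2.30 CPM against 0.252 to 5.35 CPM (log2 2.76, adjusted p = 0.0250), and the counts used do not separate strands. Padi4, an enzyme that converts arginine to citrulline in proteins, was 0 to 6.04 CPM against 0 to 0.752 CPM (log2 -3.49, SE 0.83, adjusted p = 0.0430), and its call held in 11 of the 24 fits.

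Zxdc, a zinc finger protein that acts with the MHC class II activator CIITA, was 16.8, 27.6 and 40.1 CPM (lowest, median, highest) under the wild-type label and 33.8, 46.4 and 63.5 CPM under the DRE-null label. In 11 of 12 DRE-null-labelled libraries it lay above every wild-type-labelled one, and the labels were apart at each hour. It rose by 0.74 on the log2 scale (SE 0.13, edgeR adjusted p = 0.00820), and was not called with a length trend removed (log2 0.61, adjusted p = 0.0900). Arhgap36, an X-linked regulator of protein kinase A and hedgehog signalling, was 0.356 to 2.28 CPM at 2 h and 7.57 to 32.2 CPM at 12 h under the wild-type label, and 1.51 to 5.74 CPM and 34.2 to 74.7 CPM under the DRE-null label. The labels were apart at 12 h alone, and the difference was 1.17 (SE 0.27, adjusted p = 0.0304), called in 14 of 24 fits when single libraries were omitted. The pseudogene Rps6-ps4, chosen after its values were seen, was 2.05, 3.45 and 5.45 CPM against 3.70, 6.33 and 11.04 CPM (log2 0.91, SE 0.20, adjusted p = 0.0264). The call was lost without library 1, 2, 81 or 87, and its reads may include reads of the ribosomal protein gene it copies.

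**Figure D3:**
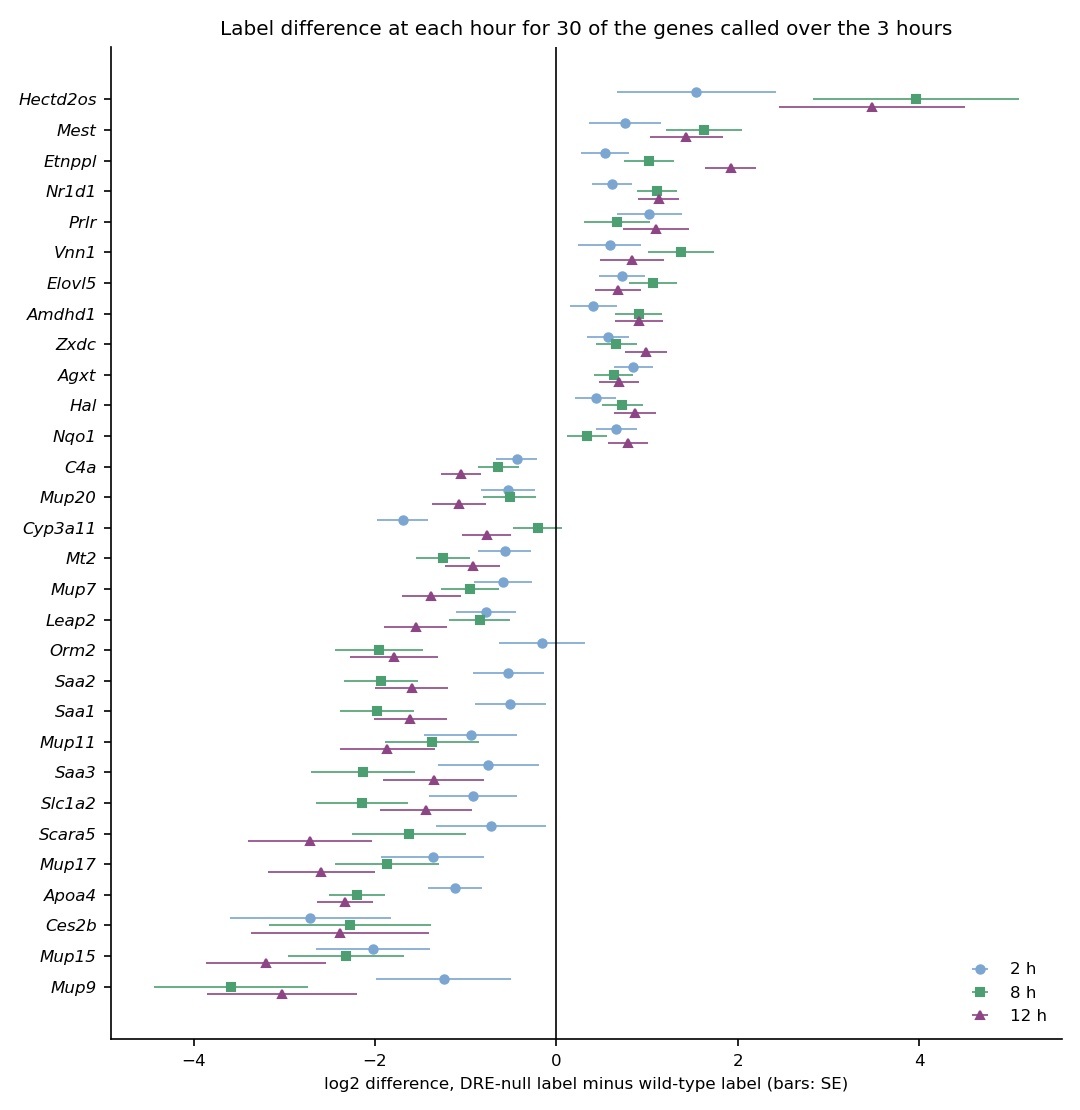
Log2 differences between the labels (DRE-null over wild-type) of 30 called genes at 2, 8 and 12 h, with bars of 1 SE from the model of 6 groups of 4 libraries. Apoa4 and the Mups lie left of 0 at each hour, and Nr1d1, Etnppl, Agxt and Zxdc lie right of 0 at each hour.

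Short nuclear genes for mitochondrial proteins were picked out after the calls were seen. These were 10 called genes for the respiratory chain, its assembly, protein import and related functions, namely Atp5o, Cox5b, Uqcr11, Sdhaf4, Pet100, Romo1, Tomm7, Timm13, Higd1a and Mrps36. Their log2 differences lay between -0.90 and -0.62. Of 193 genes tested whose symbols begin with Nduf, Sdh, Uqcr, Cox4 to Cox8, Atp5, Timm, Tomm, Mrps or Mrpl, 7 were lower and 0 higher by edgeR, with a median of -0.15. Over all genes tested the shares called were 0.467% lower and 0.181% higher, with a median of 0.04. The calls of Mrps36, Tomm7 and Sdhaf4 held in all 24 fits with 1 library omitted, whereas those of Uqcr11, Cox5b, Atp5o and Romo1 held in 11, 8, 7 and 6. Tomm7, a subunit of the outer membrane translocase, was 24.7 to 33.9 CPM at 2 h against 20.1 to 24.7 CPM, 21.5 to 44.3 against 8.55 to 19.1 CPM at 8 h, and 16.4 to 32.6 against 11.8 to 13.2 CPM at 12 h. The labels were apart at each hour, if narrowly at 2 h. Transcripts of the 10 genes were 569 to 2232 nucleotides long, and the median length of lower genes was 1249.5 nucleotides against 3196.5 over all genes tested and 2663.5 for higher genes. The Spearman correlation between a gene's length and its log2 difference, across 13234 genes that are not independent replicates, was 0.34 over the 3 hours, -0.13 at 2 h, 0.19 at 8 h and 0.42 at 12 h. With a trend in length removed from the counts, 5 of the 10 and 70 of the 86 genes were still called. The other 5 of the 10 kept an adjusted p of 0.0104 to 0.0455 in that fit and fell short of the 1.5-fold limit, with log2 differences of -0.55 to -0.47. Genes of the tricarboxylic acid cycle, 20 tested, gave 0 calls by edgeR over the 3 hours or at 12 h.

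With all libraries kept, most calls were at 12 h. The counts in gene lists that follow stand beside 1.48% higher and 3.53% lower over all genes at that hour, and in every list most members were not called. Hmox1, heme oxygenase, was 122.4, 169, 240 and 360 CPM under the wild-type label and 2611, 324, 2368 and 1849 CPM under the DRE-null label. The DRE-null library at 324 CPM, library 86, fell within the wild-type range, and it also had the largest share of pairs on no gene (9.79% against 3.95% in the lowest library). The log2 difference at 12 h was 3.00 (SE 0.48, edgeR adjusted p = 0.000691), and 3.35 without that library. At 8 h the levels were 726, 727, 212 and 211 CPM against 138.6, 215, 126.6 and 180.0 CPM, a difference of -1.52 that was not called (adjusted p = 0.238), and the label-by-hour term of Hmox1 passed (adjusted p = 0.00563).

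Of 28 antioxidant and NRF2 target genes tested at 12 h, 4 were higher and 1 lower by edgeR, with a list median of 0.08. Gclc and Gclm, the 2 subunits of the enzyme that limits glutathione synthesis, were higher by 1.39 and 0.92 on the log2 scale (adjusted p = 0.00109 and 0.00153), and Srxn1, sulfiredoxin, by 1.27 (adjusted p = 0.00300). Gpx1, a glutathione peroxidase, was lower (log2 -0.82, adjusted p = 0.0259). With a length trend removed Gclm and Gpx1 were not called, and the Gpx1 call was also lost without library 14, 16, 85, 86, 87 or 88. Ugdh, which makes UDP-glucuronic acid, was higher (log2 1.16, adjusted p = 0.00538), and so were Abcc2, a canalicular exporter of conjugates (log2 1.64, adjusted p = 0.00153), and G6pc, the glucose-6-phosphatase of glucose output (log2 1.37, adjusted p = 0.00752). Kitl, stem cell factor, had a difference of 2.58 (adjusted p = 0.0257) and was not called when any 1 of libraries 14, 15, 16, 86 and 88 was left out.

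Of 20 NF-kB and chemokine genes tested at 12 h, 6 were lower and 0 higher by edgeR, with a list median of -0.68 against 0.02 over all genes tested. Icam1, an adhesion molecule for leukocytes, was 34.2, 45.1, 35.4 and 35.1 CPM under the wild-type label and 8.27, 12.2, 7.35 and 9.84 CPM under the DRE-null label (log2 -1.97, SE 0.31, adjusted p = 0.000539). The labels were apart for Icam1 at 12 h and overlapped at 2 and 8 h. The chemokines Ccl2, Ccl7 and Cxcl1 had differences of -1.99, -2.13 and -1.42 (adjusted p = 0.00400, 0.00532 and 0.00682), and Nfkb2 and the feedback inhibitor Tnfaip3 of -1.09 and -1.49 (adjusted p = 0.00554 and 0.0107). The Tnfaip3 call was lost without library 14 or 87. Immediate early genes, 18 tested, gave 4 lower and 0 higher with a list median of -0.07, and the 4 were Junb (log2 -1.77), Egr1 (log2 -1.57), Fos (log2 -1.37) and Ier3 (log2 -1.24). The Ier3 call was lost without library 14, and the Fos call without library 14, 15, 85, 87 or 88.

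Of 30 interferon-stimulated genes tested at 12 h, 6 were lower and 0 higher by edgeR, with a list median of -0.21. All 12 macrophage markers also lay below 0 at this hour, and above 0 at 2 h, and their part in these counts was not tested. Oasl1, an oligoadenylate synthetase-like protein, was 89.5, 112.8, 81.03 and 73.1 CPM against 16.5, 30.7, 17.8 and 19.8 CPM, and the labels did not overlap (log2 -2.05, SE 0.24, adjusted p = 5.50e-05). At 2 and 8 h its levels overlapped, and the label-by-hour term passed (adjusted p = 0.00563). Usp18 and Isg15, which remove and supply the ubiquitin-like tag ISG15, had differences of -1.61 and -1.12 (adjusted p = 0.00263 and 0.0246). The Isg15 call was lost with a length trend removed and without library 14, 16, 85, 87 or 88. Psmb9, an immunoproteasome subunit, had a difference of -1.28 (adjusted p = 0.00265) and was 1 of 3 lower genes among 12 of MHC class I and antigen processing.

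Of 35 cytoskeleton and matrix genes tested at 12 h, 13 were lower and 0 higher by edgeR, with a list median of -0.81. Actb, β-actin, was 7075, 9252, 7061 and 8621 CPM under the wild-type label and 3918, 3395, 4177 and 3863 CPM under the DRE-null label (log2 -1.05, SE 0.18, adjusted p = 0.000959). At 2 and 8 h the Actb levels of the labels overlapped. Flna, an actin crosslinker, had a difference of -1.27 (adjusted p = 0.000836), Anxa2, a membrane-binding annexin, of -1.68 (adjusted p = 0.000730), and Ccn1 and Ccn2, matricellular targets of YAP, of -1.82 and -1.18 (adjusted p = 0.000815 and 0.00933). Cdh1, E-cadherin, had a difference of -1.31 (adjusted p = 0.000198).

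**Figure D4:**
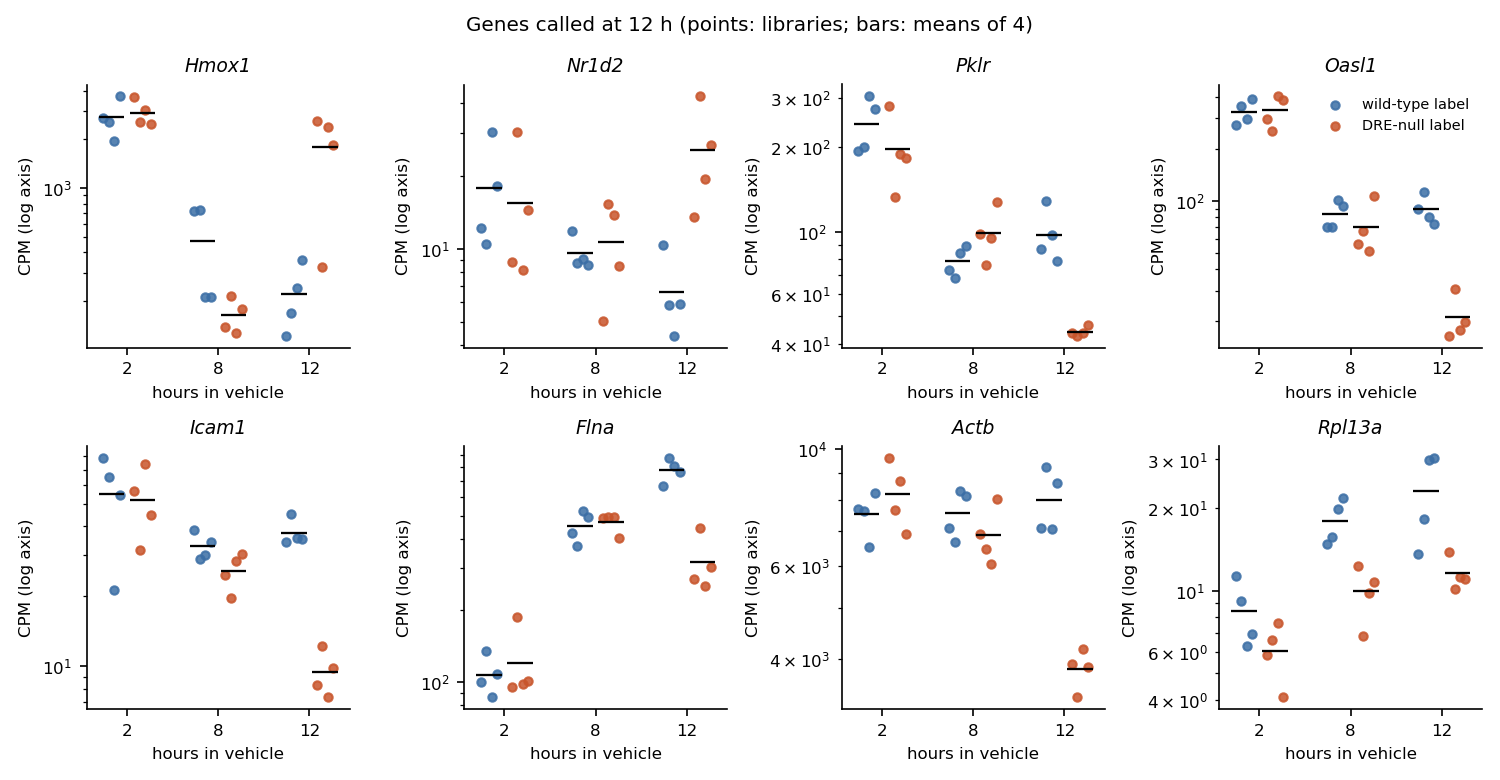
Levels of Hmox1, Nr1d2, Pklr, Oasl1, Icam1, Flna, Actb and Rpl13a in CPM on a log axis, 1 point per vehicle library at 2, 8 and 12 h, coloured by genotype label, with bars at the means of 4 libraries. At 12 h the labels are apart in Nr1d2, Pklr, Oasl1, Icam1, Flna and Actb, whereas 1 DRE-null library lies in the wild-type range in Hmox1.

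Cholesterol synthesis genes, 23 tested, gave 5 lower and 0 higher at 12 h by edgeR with a list median of -0.46, among them Pmvk and Mvk, which phosphorylate mevalonate (log2 -1.07 and -1.29, adjusted p = 0.00283 and 0.0181). The Mvk call was lost without library 16, 85, 87 or 88. Cytosolic ribosomal protein genes, 36 tested, gave 13 lower and 0 higher at 12 h, and 36 of 36 had a difference below 0, with a median of -0.59. At 2 h the median of the same list was 0.16 and 32 of 36 lay above 0. Rpl35 and Rps28 had differences of -1.31 and -1.11 at 12 h (adjusted p = 0.0166 and 0.00909), and the Rpl35 call was lost with a length trend removed. Lower genes at 12 h had a median length of 2028 nucleotides and GC content of 53.9%, and higher genes of 5108.5 nucleotides and 46.6%. The part of transcript length in these differences was not tested beyond the length-corrected fits, in which higher calls at 12 h went from 207 to 96 and lower calls from 493 to 352.

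Nr1d2, which encodes REV-ERBβ, was 10.3, 5.86, 4.38 and 5.90 CPM at 12 h under the wild-type label and 13.5, 42.4, 19.4 and 26.7 CPM under the DRE-null label (log2 1.98, SE 0.42, edgeR adjusted p = 0.00662). With Nr1d1 (log2 1.13) and Cry2, a light-independent repressor of the clock (log2 1.00, adjusted p = 0.0270), it made 3 higher genes of 19 clock genes at 12 h. The Cry2 call was lost with the length trend removed and without library 13, 14, 15, 85, 87 or 88.

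The difference between the labels itself differed between the hours for 89 of 13964 genes (0.637%), by the label-by-hour term of edgeR at an adjusted p under 0.05. The 5 genes with the smallest p were Megf9, Dusp5, Hmox1, Oasl1 and Ccn1. Megf9, a membrane protein with EGF-like domains, had differences of 0.62, -1.21 and 2.24 at 2, 8 and 12 h (adjusted p of the term 0.000898). Dusp5, a nuclear phosphatase of ERK, had differences of 0.17, 0.27 and -1.87 (adjusted p of the term 0.00118). Ccn1 had 0.32, 0.81 and -1.82 (adjusted p of the term 0.00563). In each of the 5 the difference at 12 h was the largest in size.

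**Figure D5:**
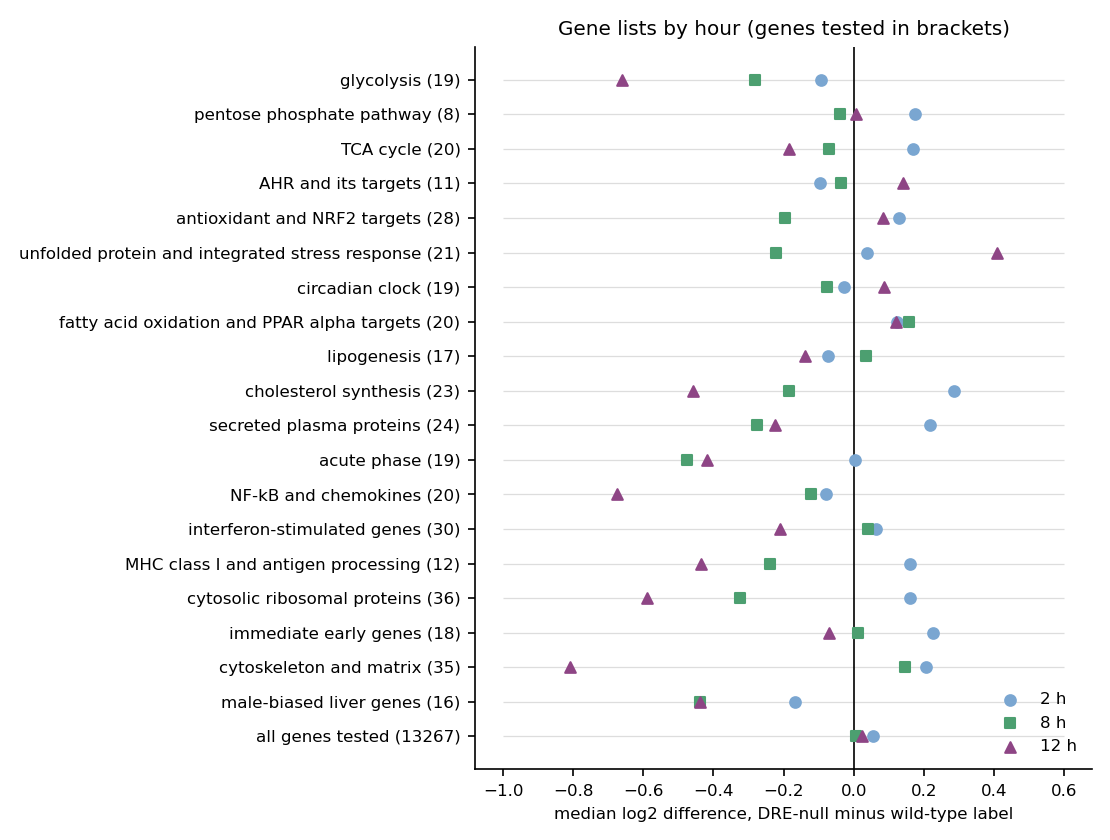
Median log2 difference between the labels (DRE-null over wild-type) of 20 gene lists at 2, 8 and 12 h. The medians of cytoskeleton, NF-kB and ribosomal protein genes lie at -0.81, -0.68 and -0.59 at 12 h, left of their own values at 2 and 8 h.

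Glycolysis, the route that pyruvate kinase closes, gave 0 called genes by edgeR of 19 tested over the 3 hours and at 2, 8 and 12 h. Over the hours 18 of 19 differences were below 0, with a median of -0.33 (-0.66 at 12 h). Over all genes tested 5732 of 13267 differences were below 0. Gapdh was 3360, 4788 and 5710 CPM (lowest, median, highest) under the wild-type label and 2118, 3621 and 7229 CPM under the DRE-null label, which overlapped (log2 -0.29, adjusted p = 0.487). Pgk1, which makes ATP in the same route, had a difference of -0.48 (adjusted p = 0.0757). The pentose phosphate pathway, 8 tested, gave 0 calls and a median of 0.04. Secreted plasma proteins, 24 tested, gave 0 calls over the hours and a median of -0.05, and Alb was 39545 to 133992 CPM against 40638 to 166592 CPM.

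Markers of other liver cells were present at low levels under both labels. In bulk cultures fewer cells of a type and less RNA per cell cannot be told apart. Macrophage and Kupffer cell markers, 12 of 12 tested, summed to 145 to 421 CPM under the wild-type label and 137.2 to 585 CPM under the DRE-null label. At 2 h all 12 had differences above 0, with a median of 0.35, and at 8 h 4 of 12 did, with a median of -0.18. At 12 h all 12 had differences below 0, with a median of -0.51, and C1qa, a complement component of macrophages, was called (log2 -1.32, edgeR adjusted p = 0.00328). This moved in the same direction as the chemokine and interferon-stimulated genes at 12 h, and its part in them was not tested. Endothelial markers summed to 131.2 to 599 against 156 to 647 CPM, stellate cell and fibroblast markers to 37.8 to 65.4 against 47.8 to 87.5 CPM, and cholangiocyte markers to 24.4 to 147 against 18.98 to 148 CPM, of which Sox9 was called at 12 h (log2 -1.95, adjusted p = 0.00361). Lymphocyte markers summed to at most 21.3 CPM, with Cd3g, Nkg7 and Ms4a1 at 0 in all 24 libraries, and neutrophil markers to at most 2.86 CPM, with Cxcr2 and Ly6g at 0. Erythroid markers summed to 48.6 to 347 CPM.

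The other 6 vehicle hours (4, 24, 48, 72, 96 and 120 h, 48 libraries) gave the same measure in libraries that were not used above, although they may come from the same livers. There 31 of 15494 genes were called (0.2%), 17 higher (0.11%) and 14 lower (0.0904%), and 6 of the 86 early genes were among them, which is 6.98% of the early and 19.4% of the other calls. These 6 were Rps6-ps4, Zxdc, Arhgap36, Orm2, Saa3 and Zbtb7c, a zinc finger repressor. In Saa3 the first pair of wild-type-labelled libraries lay above the second at 6 of 9 vehicle hours. The sign was the same for 78 of the 86. Rps6-ps4 had a difference of 1.44 (edgeR adjusted p = 4.70e-10) and its DRE-null libraries all lay above the wild-type ones at 7 of 9 vehicle hours. Zxdc was apart at 4 of 9 hours, with the DRE-null mean higher at 9 of 9.

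At the other hours, many vehicle libraries of both labels correlated best with the mean of an hour that was not their own. Library 92 (DRE-null label, 24 h) was nearest to 48 h (r = 0.935, against 0.889 with its own hour). Library 94 (DRE-null label, 48 h) was nearest to 72 h (0.957 against 0.914), as was library 24 (wild-type label, 48 h, 0.979 against 0.969). The 2 libraries with the lowest correlation with their own hour were as follows. Library 80, labelled DRE-null at 4 h, correlated best with the mean of 72 h (r = 0.986, against 0.822 with its own hour), and replicate 4 of the DRE-null label at 96 h with the mean of 4 h (r = 0.968, against 0.810). Without both, 96 genes were called at the other hours and 20 of the 86 early genes were among them (23.3% of the early and 20.8% of the other calls). The genes added were Apoa4, Cyp3a11, Moxd1, Mt2, Saa1, Saa2 and 8 Mups. In Apoa4 the DRE-null libraries all lay below the wild-type ones at 6 of 9 vehicle hours. None of the 24 early libraries is 1 of these 2, so the tests at 2, 8 and 12 h do not use them, although they enter the scaling of the printed CPM.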

How the data were processed

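RNA-seq was done on primary hepatocyte cultures of 24 vehicle libraries, 12 per genotype label, with 4 per label at 2, 8 and 12 h. The authors deposited 1 table of raw read-pair counts per gene for each library (55359 genes), not normalized. Per the labels, FastQC 0.11.3, Trimmomatic 0.39, STAR 2.7, DESeq2 and the build GRCm39 were used. The unstranded count column was taken, since the 2 stranded columns held nearly equal shares (50.5 to 51.2%). Names came from GENCODE M21 by gene identifier (52083 matched).

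Counts were tested with edgeR 4.0.16 in R 4.3.3 (TMM scaling, filterByExpr with a minimum count of 10 and total of 15, robust quasi-likelihood) with label and hour as terms. Hourly differences and the label-by-hour term (2 degrees of freedom) came from a model of 6 group means. P-values were adjusted by Benjamini-Hochberg over all genes tested, and genes were called at an adjusted p under 0.05 and a change of at least 1.5-fold, except that the label-by-hour term had no fold limit. Between 15491968 and 25068992 pairs per library were assigned to a gene. Pairs that were unmapped, mapped to several places, on no gene or ambiguous took 23.1 to 30.2% of the total and entered no test. Single values such as composition shares were compared by two-sided exact permutation tests. Printed CPM used TMM factors over all libraries of the series.

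On simulated data drawn from these libraries, edgeR recovered 68.9% of 193 genes changed by a log2 of 1, with 6 false calls, over 12933 genes tested. The simulated libraries were independent of each other. The count of false calls therefore does not cover spread shared by libraries of the same liver or order. Alternatives used DESeq2 1.42.0, limma 3.58.1 and sva 3.50.0. Genes were named by a rule: Pkm and Pklr, the 12 largest changes in each direction among called genes with an established symbol, at least 1 CPM under 1 label and 1 sign at all 3 hours, the leading members of each list, the nearest tested neighbours of Pkm, and the 5 smallest label-by-hour p-values. Further genes are named as members of a list, or were chosen after their values were seen: Arpp19, C4a, Leap2, Agxt, Mest, Zxdc, Rps6-ps4, Tomm7 and the other short mitochondrial genes, Ces2c, Acmsd, Fitm2, Cidec, Ifi27, Dhx58, Amdhd1, Kitl, Abcc2 and the remaining Mups. The libraries, the gene lists and these choices were made with earlier results of these data known, so no list is independent evidence of its direction. Promoter sequences and their motif matches came from RefSeq tables on GRCm38.p6, not the build of the counts. Sequence near Pkm was not analysed here, and 2 genes that the rule names are not reported here.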

Additional observations from a re-analysis of the deposited data

Results flagged for a closer look

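Among the groups of 4 libraries of this comparison, each examined in several composition measures and named genes, 6 held a value apart from its group by Dixon's criterion. This is 4.76% of the groups tested, where chance alone flags about 1 in 20. Agxt in library 74 (DRE-null label, 2 h) was 497 CPM against 777 to 810 CPM in the other three. Leap2 was 99.8 CPM in library 73 (DRE-null label, 2 h) against 49.2 to 54.7 CPM, and 19.7 CPM in library 84 (DRE-null label, 8 h) against 7.79 to 9.46 CPM. Library 84 also had 19070548 pairs on genes against 16011765 to 16491763, and library 73 had 10.8% unmapped pairs against 9.29 to 9.50%. The mitochondrial share of library 16 (wild-type label, 12 h) was 2.29% against 3.96 to 4.22%.

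The difference between the labels differed between 2, 8 and 12 h for 89 genes, by the label-by-hour term of edgeR. The adjusted p of this term was 0.000898 for Megf9, 0.00118 for Dusp5, and 0.00563 for Hmox1, Oasl1, Ccn1 and Cdh1. It was 0.0143 for Junb, 0.0148 for Abcc2, 0.0172 for Gclc, 0.0214 for Flna, and 0.0258 for Egr1 and Ugdh. It was 0.0315 for Pmvk, 0.0333 for Actb, 0.0405 for Pklr, 0.0437 for Icam1, Fos and Psmb9, and 0.0461 for Igtp. These 19 genes were picked with their 12 h values known. That each was past the call threshold at 12 h therefore follows from the choice and does not describe the 89.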

How the results depend on the processing

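No paired analysis was possible because the labels give no replicate numbers, and the order of library numbers within a group does not name an animal. Calls are given here as percents of the genes tested in each fit, since settings differ in how many they test, and pairs of values are genes higher and lower under the DRE-null label. Over the 3 hours these were 0.181 and 0.467%. They became 0.510 and 1.07% by DESeq2, 1.02 and 1.27% by limma voom with quality weights, 0.0716 and 0.0501% with the unmapped share as a covariate, 0.365 and 0.838% as the mean of the 3 hourly differences, 0.0829 and 0.181% with library order as a random block, and 0.0468 and 0.254% with counts summed by library order over the hours. Single hours gave 0 and 0% at 2 h, 0 and 0.0576% at 8 h, and 1.22 and 2.47% at 12 h. Higher genes numbered 40 without the filter on low counts (0.141% of 28465, against 24 of 13267), and were 0.243% after adding the share of pairs on no gene to the model and 0.294% with 1 surrogate variable. Lower genes were 0.722% when the 4 h libraries except library 80 were added. Leaving out 1 library gave 0.104 to 0.267% higher (library 14 to 84) and 0.215 to 0.807% lower (87 to 3).

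In the model of 6 groups, 2 h calls (0.00716 and 0.0143%) were 0.148 and 0.200% unfiltered and 0.143 and 0.100% by DESeq2, with 0 to 0.0277% and 0 to 0.0140% on leaving out 1 library. The 8 h calls (0 and 0.00716%) were 0.755 and 0.295% unfiltered and 0.427 and 0.182% by DESeq2, with 0.00716% higher on removing a length trend, and 0 to 2.93% and 0.00691 to 0.611% on leaving out 1 library, both highest without library 84. The 12 h higher calls (1.48%) were 3.41% unfiltered, 4.21% by DESeq2 and 0.688% with a length trend removed, with 0.320 to 2.64% higher (library 14 to 13) and 1.20 to 4.18% lower (88 to 82) on leaving out 1. Label-by-hour calls (0.637%) were 4.31% unfiltered, 4.82% by DESeq2 and 0.967% with the length trend removed, with 0.0625 to 3.36% on leaving out 1 (87 to 84). Calls at the other hours (0.11 and 0.0904%) were 0.572 and 0.346% by DESeq2, 0.261 and 0.350% without library 80 and replicate 4 of the DRE-null label at 96 h, and 0.179 and 0.313% without libraries 21 and 31 as well.

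Pkm reversed to -0.19 at 8 h alone and to -0.082 without replicate 1 of the DRE-null label at 2 h (range -0.082 to 0.24), and Pklr to 0.34 at 8 h alone. The cause of these shifts was not tested. The 86 calls kept their sign wherever they were tested, 83 of them were called by DESeq2, 70 with a length trend removed, 53 with the 4 h libraries added, 31 with the random block, 18 with counts summed by library order and 13 with the unmapped share. Settings marked by the length trend, library order and libraries left out at other hours were chosen after seeing the data.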
